A study of Mus musculus with 6 samples.

Results

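The genes followed here are 8 that cells raise under low oxygen, none of them an enzyme of glycolysis. They are *Vegfa*, *Bnip3l*, *P4ha1*, *P4ha2*, *Ddit4*, *Mxi1*, *Vldlr*, and *Lox*, taken by symbol, and all 8 were found among the 4864 analysed genes. The genes were selected on values from these same libraries, since the rule that names them compares NJT-2 with vehicle and NJT-2 replicate 2 with NJT-2 replicates 1 and 3. Both comparisons are therefore given as descriptions. The study asked how NJT-2, a saponin that its authors propose as a selective PPARγ agonist, acts on adipocytes. ADSCs, the adipocyte precursors of mouse subcutaneous adipose tissue (WT, labelled mesenchymal stem cell), went through primary adipocyte differentiation without NJT-2 (Control, here called vehicle) or with NJT-2, with 3 libraries each. Both groups received the same induction medium with dexamethasone, insulin, 3-isobutyl-1-methylxanthine, indomethacin, and triiodothyronine. Compounds were used at 200 nM in this cell model and cells were harvested on day 8. The oxygen level of the cultures is not given in the sources used here, nor is whether replicates came from separate mice, so the spread between libraries may be partly technical.

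Cells sense oxygen through prolyl hydroxylases that mark the HIF α subunits for destruction while oxygen is present. When oxygen falls, HIF-1α and HIF-2α persist, pair with ARNT, and bind short DNA elements whose core reads ACGTG or GCGTG. Their targets include the enzymes of glycolysis and the genes followed here, which act in blood vessel growth, mitochondrial clearance, collagen maturation, growth control, and lipoprotein uptake. In adipose tissue this response is known from expanding fat depots, where vessels lag behind cell growth, and several of its genes also answer to other signals, such as *Ddit4* to glucocorticoids and *Vldlr* to PPARγ.

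The promoters were read for this element, because all 8 genes had their highest level in the same library, NJT-2 replicate 2. A promoter window is here the 250 bases before a transcription start in RefSeq (GRCm38.p6), and 10 windows of 6 members were matched. ACGTG or GCGTG, searched on both strands, stood in 6 of the 10 windows, a share of 60.0%, where 57.0% of the windows of tested genes and 38.6% of all 32851 windows had one. Taken singly, ACGTG stood in 60.0% of the member windows and 22.0% of the windows of tested genes. For GCGTG these shares were 40.0% and 45.5%. The shares of the members rest on 10 windows and were not tested. *Vegfa*, *Vldlr*, and *Mxi1* have more than 1 window each, so the windows are not separate genes, and *Bnip3l* and *Lox* have none. The windows with a match that overlapped no exon of these genes are shown for *P4ha1* and an internal start of *P4ha2*, which have 3 matches each, and for an internal start of *Mxi1*, which has 1. Capitals mark the matches, which read CACGT or CACGC where they lie on the other strand. The first windows of *Vegfa* and *Mxi1* and every matched window of *Vldlr* held neither letter string. The other windows with a match, of *Ddit4*, *Vegfa*, and *Mxi1*, overlapped exons of these genes and are not shown.
P4ha1, chr10:59323046-59323295, plus strand: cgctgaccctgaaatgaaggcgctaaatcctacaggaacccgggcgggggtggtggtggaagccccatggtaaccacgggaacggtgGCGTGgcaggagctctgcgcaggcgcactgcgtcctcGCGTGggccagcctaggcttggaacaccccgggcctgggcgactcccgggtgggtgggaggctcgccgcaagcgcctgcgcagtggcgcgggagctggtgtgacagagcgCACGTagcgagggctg
P4ha2, chr11:54100674-54100923, plus strand: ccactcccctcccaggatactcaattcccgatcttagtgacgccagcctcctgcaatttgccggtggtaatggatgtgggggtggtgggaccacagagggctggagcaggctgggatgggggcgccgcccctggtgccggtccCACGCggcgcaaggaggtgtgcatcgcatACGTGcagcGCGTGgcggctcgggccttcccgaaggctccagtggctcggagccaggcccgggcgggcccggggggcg
Mxi1, chr19:53329163-53329412, plus strand: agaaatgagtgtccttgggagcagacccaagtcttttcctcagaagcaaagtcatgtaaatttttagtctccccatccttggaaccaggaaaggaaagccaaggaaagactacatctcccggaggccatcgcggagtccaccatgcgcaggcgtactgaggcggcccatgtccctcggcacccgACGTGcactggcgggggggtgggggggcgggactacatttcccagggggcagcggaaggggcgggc

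A pair of libraries stood apart before any of these genes was considered. The counts of NJT-2 replicates 1 and 3 differed by a chi-square of 56.6 per gene, against 1490 and 1300 between each of them and NJT-2 replicate 2. Vehicle replicate 1 had the fewest counts on the analysed genes, 16093037 where the others had 21474315 to 28929673, and it lay farther from vehicle replicates 2 and 3 (1130 and 1970) than these from each other (458). The defining adipocyte gene *Adipoq* had an FPKM (read fragments scaled to gene length and library size) of 0.38, 0.50, and 0.39 with vehicle and of 64.6, 22.0, and 58.5 in NJT-2 replicates 1, 2, and 3. This marker of the labelled differentiation was thus near 0 with vehicle.

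In all 8 genes, NJT-2 replicate 2 had the highest FPKM of the 6 libraries, which was true of 24.4% of the 3705 tested genes. NJT-2 replicates 1 and 3 lay close to each other in every one of them, with ratios of replicate 1 to replicate 3 from 0.828 for *Lox* to 1.22 for *Mxi1*. NJT-2 replicate 2 stood between 1.98 and 6.01 times above the mean of both, with a median of 3.45, while the median over all tested genes was 0.846. It was over 2 times higher than both of them in 7 of the 8 genes, against 12.2% of all tested genes. *Mxi1*, at 2.25 times the higher of the other NJT-2 libraries, was just inside this limit, and *Ddit4*, at 1.95 times, just outside. Since the members were named with this library in view, these shares describe the choice and support nothing further.

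**Figure D1:**
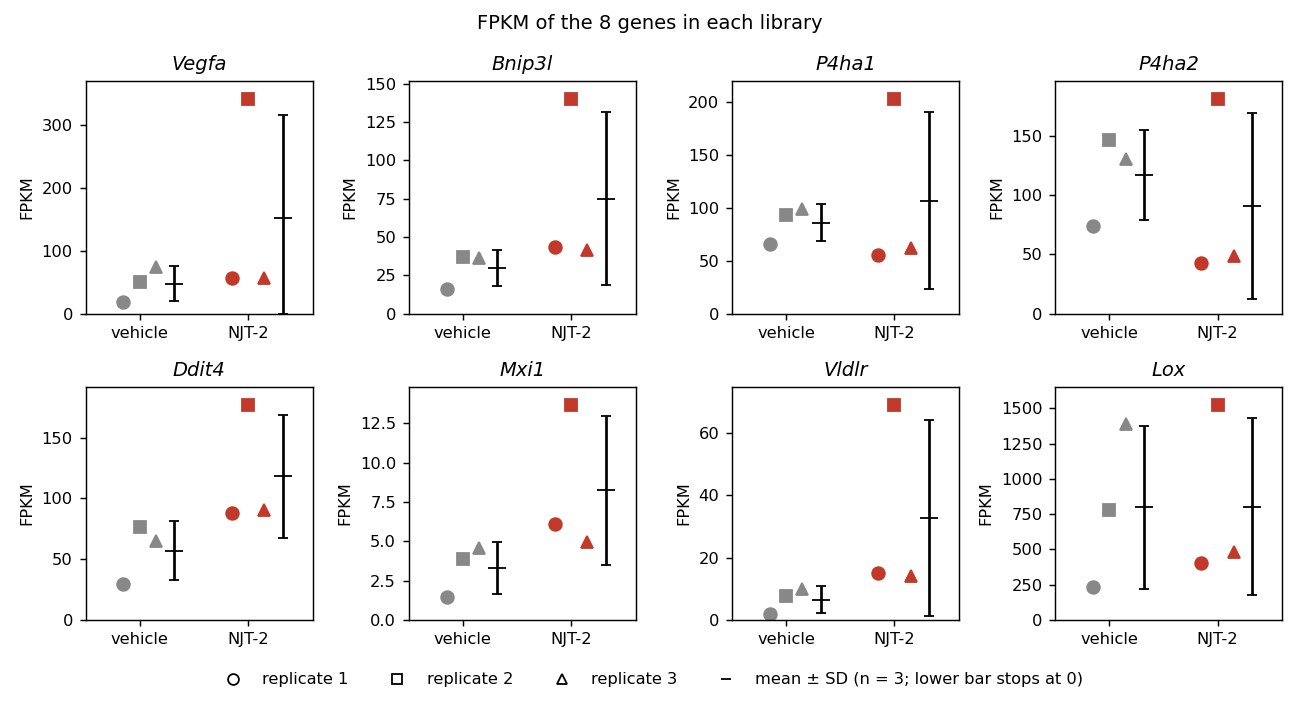
FPKM of each of the 8 genes (vertical axes, linear from 0) in the 3 vehicle libraries (grey) and the 3 NJT-2 libraries (red), with the marker shape giving the replicate and black bars the mean ± SD (n = 3). NJT-2 replicate 2 (red square) is the highest point in all 8 panels, and vehicle replicate 1 (grey circle) is the lowest vehicle point in all 8.

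*Vegfa* (ENSMUSG00000023951, on chromosome 17 of GRCm38 from 46016993 to 46032369, minus strand) encodes the main growth factor for blood vessels. With vehicle its FPKM was 18.1, 50.4, and 74.1 and with NJT-2 it was 56.9, 341, and 56.6, here and below in the order of replicates 1, 2, and 3. Replicates 1 and 3 of NJT-2 thus lay inside the vehicle range, and replicate 2 was 4.61 times the highest vehicle library. In that library *Vegfa* ranked 27 among the 4864 analysed genes by FPKM, against 273 and 266 in the other NJT-2 libraries. Of the related ligands, *Vegfb*, which differs from *Vegfa* in not being a classical low oxygen target, had an FPKM of 10.8, 12.3, and 10.7 across the NJT-2 libraries and of 8.40 to 12.6 with vehicle. *Pgf*, placental growth factor, had 60, 4981, and 22 counts in NJT-2 replicates 1, 2, and 3 and 143, 188, and 89 with vehicle. Of the VEGF receptors only *Flt4* is among the analysed genes, and its FPKM was at most 0.52.

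*Bnip3l* (ENSMUSG00000022051, chromosome 14 from 66985239 to 67008877, minus strand) encodes NIX, a receptor of the outer mitochondrial membrane that hands mitochondria to autophagy. Its FPKM was 16.3, 37.0, and 36.4 with vehicle and 43.2, 139.9, and 41.4 with NJT-2. All NJT-2 libraries lay above all vehicle libraries, though replicates 1 and 3 exceeded the highest vehicle value by little. Among 8 tested genes of mitophagy and of the BNIP family, none was over 2 times higher in NJT-2 replicate 2 than in both other NJT-2 libraries. The share of all tested genes was 12.2%. *Sqstm1*, a cargo adaptor of autophagy, was at 215, 321, and 228 in the NJT-2 libraries and at 51.0, 96.7, and 85.4 with vehicle. *Phb2*, an inner membrane receptor, was at 18.5 in NJT-2 replicate 2 and at 44.0 and 40.6 in replicates 1 and 3.

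*P4ha1* (ENSMUSG00000019916, chromosome 10 from 59323296 to 59373304, plus strand) and *P4ha2* (ENSMUSG00000018906, chromosome 11 from 54100095 to 54131662, plus strand) encode the catalytic subunits of collagen prolyl 4-hydroxylase, whose product holds the collagen triple helix together. *P4ha1* had an FPKM of 66.2, 93.5, and 98.6 with vehicle and of 55.7, 203, and 61.7 with NJT-2. *P4ha2* had an FPKM of 73.7, 146, and 131 with vehicle and of 42.6, 181, and 48.8 with NJT-2. In both genes, NJT-2 replicates 1 and 3 lay below every vehicle library while replicate 2 lay above every one. These are 2 of the 8 members with such a low pair, against 18.2% of the tested genes. The balance of the subunits differed in another way. The ratio of *P4ha1* to *P4ha2* FPKM was 0.897, 0.640, and 0.755 with vehicle and 1.31, 1.12, and 1.26 with NJT-2, so on this ratio NJT-2 replicate 2 lay with its group and the groups did not overlap. The ratio was looked at after the values were seen and was not tested.

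*Lox* (ENSMUSG00000024529, chromosome 18 from 52516067 to 52529867, minus strand) encodes lysyl oxidase, which starts the crosslinks between collagen chains. It was the most abundant member in every library, with an FPKM of 231, 779.6, and 1386 with vehicle and of 401, 1523, and 484 with NJT-2. NJT-2 replicate 2 was 1.10 times vehicle replicate 3, the smallest such gap of the 8 genes, and in these 2 libraries *Lox* took 2.28% and 2.09% of the counts on the analysed genes. The vehicle libraries spanned 6.002-fold, the widest vehicle range of the 8 genes. Of 7 other genes for collagen modification and crosslinking, 2 were over 2 times higher in NJT-2 replicate 2 than in both other NJT-2 libraries. The share of all tested genes was 12.2%. *P4hb*, the partner subunit of both prolyl hydroxylases, was at 373, 1102, and 426, and the lysyl hydroxylase *Plod1*, also a known low oxygen target, at 22.8, 86.1, and 24.1. *Col1a1*, the main fibrillar collagen, did not follow, with 408, 376, and 381 in the NJT-2 libraries and 118, 510.3, and 691 with vehicle. *Loxl3*, a relative of *Lox*, was at 34.3, 64.7, and 65.2 with vehicle and 18.3, 30.9, and 24.4 with NJT-2, which is -1.27 on the log2 scale (standard error 0.341) and was not called (edgeR, adjusted p = 0.156, alternatives from 0.00777 to 0.442).

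*Ddit4* (ENSMUSG00000020108, chromosome 10 from 59949669 to 59951834, minus strand) encodes REDD1, an inhibitor of mTORC1 that is raised by low oxygen, by stress, and by glucocorticoids. Its FPKM was 29.6, 76.6, and 64.8 with vehicle and 87.7, 177, and 90.9 under NJT-2, without overlap of the groups. The integrated stress response, another route to *Ddit4*, was measured through 4 genes, of which 1 (*Slc3a2*, an amino acid transporter chain) was over 2 times higher in NJT-2 replicate 2 than in both other NJT-2 libraries. *Ddit3*, a transcription factor within this response, was at 96.8, 75.9, and 90.2 in the NJT-2 libraries and at 51.7, 20.4, and 14.5 with vehicle. In 3 of these 4 genes every NJT-2 library lay above every vehicle library, against 14.4% of all tested genes. Of 6 glucocorticoid-responsive genes, 4 were over 2 times higher, namely *Per1*, *Sgk1*, *Dusp1*, and *Angptl4*, the last of which is also a target of HIF and of the PPARs. For both lists the share of all tested genes was 12.2%. Of the other glucocorticoid-responsive genes, *Fkbp5* was lower in NJT-2 replicate 2, at 15.7, 10.3, and 13.55, and *Nr3c1* higher, at 10.3, 17.2, and 8.66. *Dusp1*, a phosphatase of MAP kinases, was at 13.1, 67.6, and 13.9.

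*Mxi1* (ENSMUSG00000025025, chromosome 19 from 53310518 to 53375810, plus strand) encodes a partner of MAX that opposes MYC at shared sites. It was the least abundant member, with an FPKM of 1.43, 3.90, and 4.59 with vehicle and of 6.08, 13.7, and 4.97 with NJT-2. The groups did not overlap, but NJT-2 replicate 3 and vehicle replicate 3 were nearly level. In the MAX network, *Myc* was at 26.3, 73.2, and 30.4 and the repressor *Mxd1* at 1.78, 13.4, and 2.06 in the NJT-2 libraries. *Mxd3*, *Mlx*, and *Mlxipl* went the other way, each under 0.5 times both other NJT-2 libraries in replicate 2. *Mlxipl*, which encodes the carbohydrate-responsive factor ChREBP, had an FPKM of 0.14, 0.16, and 0.24 with vehicle. It reached the mean FPKM of 0.5 needed for testing only through NJT-2, so the filter favoured a rise. It rose with NJT-2 by 4.45 on the log2 scale (edgeR, standard error 0.571 and adjusted p = 0.027). The alternatives put that p between 5.22e-13 and 0.243, with values over 0.05 in limma on log2(FPKM + 1) (0.0536) and without any single library other than NJT-2 replicate 2.

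*Vldlr* (ENSMUSG00000024924, chromosome 19 from 27216484 to 27254231, plus strand) encodes the very low density lipoprotein receptor, which binds triglyceride-rich particles. Its FPKM was 1.87, 7.67, and 10.1 with vehicle and 15.1, 69.1, and 14.1 with NJT-2. Every NJT-2 library lay above every vehicle library, and replicate 2 was 6.87 times the highest vehicle value, the widest such gap of the 8 genes. Of 5 other tested genes of lipoprotein uptake, none was over 2 times higher in NJT-2 replicate 2 than in both other NJT-2 libraries. The share of all tested genes was 12.2%. *Lpl*, the lipase that works beside this receptor, was at 494, 92.7, and 373 in the NJT-2 libraries and at 55.1 to 78.8 with vehicle.

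Across the groups, the 8 genes fell into different patterns. *Bnip3l*, *Ddit4*, *Mxi1*, and *Vldlr* had every NJT-2 library above every vehicle library, a share of 4 in 8 where all tested genes gave 14.4%. The same 4 genes were above vehicle in NJT-2 replicates 1 and 3 taken alone, where all tested genes gave 29.2%. *P4ha1* and *P4ha2* turned from above to below vehicle depending on the library, and *Vegfa* and *Lox* lay within the vehicle range in replicates 1 and 3. The mean FPKM with its SD (n = 3) was 47.5 ± 28.1 with vehicle and 152 ± 164 with NJT-2 for *Vegfa*, and 799 ± 578 and 803 ± 625 for *Lox*. For *Vldlr* it was 6.53 ± 4.21 and 32.8 ± 31.5, so that the SD within NJT-2 was nearly as large as the mean.

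In edgeR's quasi-likelihood fit over all tested genes, none of the 8 was called, where 0.702% of all genes were. A call here needs an adjusted p below 0.05 together with a change of more than 2-fold. At an unadjusted p under 0.05, *Ddit4*, *Mxi1*, and *Vldlr* were higher, 3 of 8 against 8.04% of all tested genes, and DESeq2 called *Vldlr* alone (log2 fold change 2.39, adjusted p = 0.0217, other settings up to 0.438), where it called 7.8% of all genes. The log2 fold changes ran from -0.44 (standard error 0.613) for *P4ha2* to 2.34 (standard error 0.787) for *Vldlr*, with a median of 1.12 beside 0.02 for all genes. They were 1.67 (standard error 0.81) for *Vegfa*, 1.27 (0.511) for *Mxi1*, 1.26 (0.564) for *Bnip3l*, 0.98 (0.422) for *Ddit4*, 0.19 (0.562) for *P4ha1*, and 0.02 (0.694) for *Lox*. As the rule used this contrast, nothing is read from these counts.

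Leaving out NJT-2 replicate 2 moved every one of these values down. The log2 fold change of *Vegfa* was then 0.15, of *Bnip3l* 0.35, of *Ddit4* 0.50, of *Mxi1* 0.62, and of *Vldlr* 1.08. That of *P4ha1* turned to -0.76 and that of *Lox* to -0.93, and *P4ha2* went to -1.52. None of the 8 was called in this fit, in which 2.02% of all genes were. With vehicle replicate 1 left out as well, an alternative chosen after seeing the data, *P4ha2* was called lower (log2 fold change -1.60, adjusted p = 0.00777 in edgeR, in a range up to 0.957 over the alternatives), 1 of 8 where this fit called 13.0% of all genes. *Lox*, at -1.29, had an adjusted p of 0.0514 there, and *P4ha1*, at -0.71, one of 0.046 with a change under the limit.

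**Figure D2:**
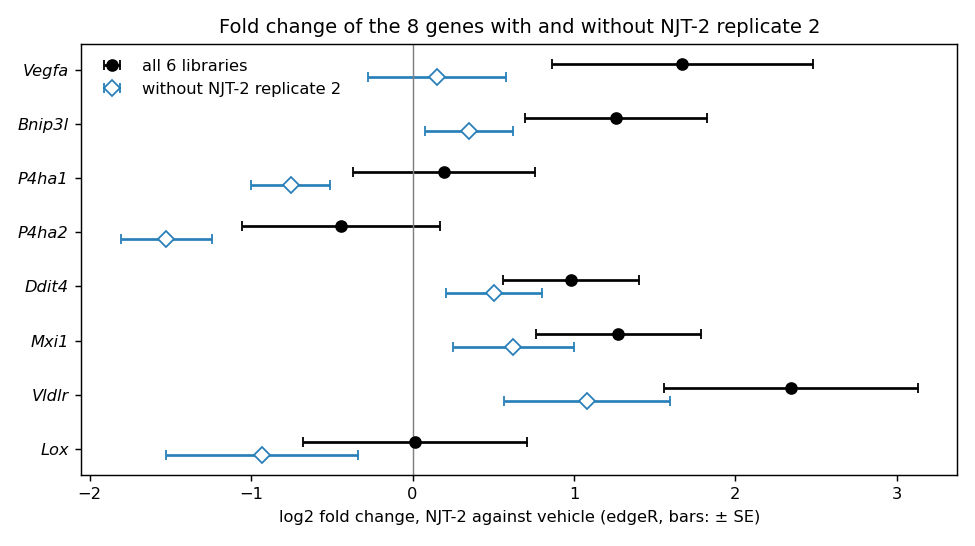
Log2 fold change of NJT-2 against vehicle for the 8 genes (edgeR, bars are ± the standard error), from all 6 libraries (black circles) and without NJT-2 replicate 2 (blue diamonds). All 8 values move to the left without that library, and those of P4ha1 and Lox cross 0, to -0.76 and -0.93.

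Vehicle replicate 1 was the lowest vehicle library in all 8 genes, which held for 66.2% of all tested genes. It lay lowest relative to the others in *Vldlr*, where vehicle replicates 2 and 3 averaged 4.74 times its value, and closest in *P4ha1*, where they averaged 1.45 times. The order of vehicle replicates 2 and 3 differed between members, with *Lox* and *Vegfa* higher in replicate 3 and *P4ha2* and *Ddit4* higher in replicate 2.

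The rest of the response was taken from a list of 40 symbols of low oxygen targets outside glycolysis, 16 of them among the analysed genes and 15 tested. In NJT-2 replicate 2, 12 of the 15 were over 2 times higher than in both other NJT-2 libraries, against the 12.2% of all tested genes given above, and the median log2 ratio to the mean of these was 1.87, beside 1.79 for the 8 members and -0.241 for all tested genes. *Nos2*, inducible nitric oxide synthase, had 182, 77654, and 273 counts in NJT-2 replicates 1, 2, and 3 and 492, 3686, and 5196 with vehicle. *Ndrg1*, a stress gene widely used as a marker of low oxygen, was at an FPKM of 3.27, 183, and 3.18 with NJT-2 and of 7.43, 12.7, and 14.4 with vehicle. The secreted stanniocalcins *Stc1* and *Stc2* were 30.6 and 18.4 times higher in NJT-2 replicate 2 than in the mean of the other NJT-2 libraries. In *Nos2*, *Ndrg1*, *Stc1*, and *Stc2*, NJT-2 replicates 1 and 3 lay below every vehicle library. *Igfbp3*, *Insig2*, and *Tfrc* were the tested genes of the list without such a rise.

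Against vehicle, edgeR called 1 of these 15 genes, which rose, where it called 0.702% of all tested genes, and DESeq2 called 2 (*Ero1l* and the heme oxygenase *Hmox1*), where it called 7.8%. *Ero1l*, which encodes an oxidase that forms disulfide bonds in the endoplasmic reticulum, had an FPKM of 17.4, 29.6, and 38.8 with vehicle and of 263, 777, and 282 with NJT-2. On the log2 scale it rose by 3.86 (edgeR, standard error 0.583 and adjusted p = 0.0408), and without NJT-2 replicate 2 it was 3.09 (adjusted p = 0.0165), so it was higher in 3 of 3 NJT-2 libraries. The call was lost without any single one of the other 5 libraries, and the alternatives put the adjusted p between 1.78e-10 and 0.3. At an unadjusted p under 0.05, 3 of the 15 were higher (edgeR), where 8.04% of all tested genes were, and none was lower, where 9.72% were. The median log2 fold change of the list was 1.11, and without NJT-2 replicate 2 it was -0.288, where the median of all tested genes was -0.0892.

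**Figure D3:**
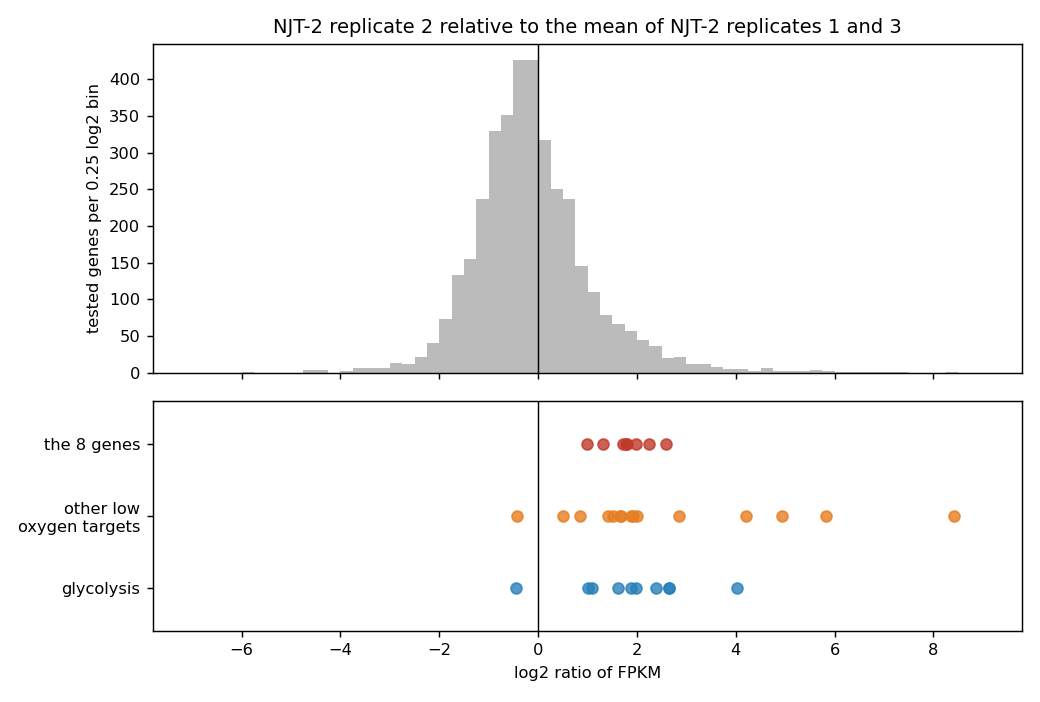
Log2 ratio of the FPKM of NJT-2 replicate 2 to the mean of NJT-2 replicates 1 and 3 (horizontal axis) for all 3705 tested genes (grey histogram, number per bin of 0.25) and, as points, for the 8 genes, 15 other low oxygen targets, and 10 genes of glycolysis. The 8 genes lie between 0.99 and 2.59, to the right of the median of all genes at -0.241.

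Glycolysis, the better-known arm of the response, moved in the same library. Of 10 tested genes, 8 were over 2 times higher in NJT-2 replicate 2 than in both other NJT-2 libraries, among them the lactate exporter *Slc16a3* at 3.78, 79.0, and 5.92 and hexokinase 2 (*Hk2*) at 13.5, 84.6, and 13.4. Of the oxygen sensing machinery itself, 2 of 7 tested genes were over 2 times higher (*Arnt2* and *Crebbp*) and 2 were under 0.5 times (*Rbx1* and *Cul2*, which serve in the degradation of HIF α). The shares of all tested genes were 12.2% and 17.2%. *Hif1a*, whose protein is governed mainly by its stability, was at 39.5, 74.8, and 61.4 in the NJT-2 libraries and at 20.7, 61.4, and 118.5 with vehicle. Among the genes that the deposited table annotates to response to hypoxia, 69 besides the members are analysed and 54 were tested. Of these 54, 15 were over 2 times higher in NJT-2 replicate 2 than in both other NJT-2 libraries, where 12.2% of all tested genes were, and 9 were under 0.5 times both, where 17.2% were. Among the 15, *Pgf*, *Ascl2*, and *Itga2* reached the mean FPKM of 0.5 only through NJT-2 replicate 2, so the filter fixed their rise. They were at 24.5, 3.13, and 2.82 in that library and at most 0.84 in any other. Of the 54 genes, 27 were higher and 27 lower with NJT-2 against vehicle. In edgeR 2 of the 54 were called higher (*Acot2* and *Adipoq*), where 0.702% of all tested genes were called in either direction. *Adipoq* reached the mean FPKM of 0.5 only through the NJT-2 libraries. DESeq2 called *Hk2*, *Hmox1*, *Cyba*, *Cav1*, *Ptgis*, *Acot2*, and *Adipoq*, where it called 7.8%. Of the members, *Vegfa* and *Ddit4* carry that annotation, and *Vegfa*, *Bnip3l*, and *Vldlr* carry the narrower one to cellular response to hypoxia.

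The summed levels of adipocyte markers and of macrophage markers were lower in NJT-2 replicate 2 than in the other NJT-2 libraries. The summed FPKM of 8 adipocyte markers was 80.4 to 103.1 with vehicle and 1615, 473, and 1308 in NJT-2 replicates 1, 2, and 3, and 7 of the 8 were under 0.5 times both other NJT-2 libraries in replicate 2, as were 17.2% of all tested genes. All 8 were higher in every NJT-2 library than in every vehicle library, against 14.4% of all tested genes. *Adipoq*, *Retn*, and *Slc2a4* averaged under an FPKM of 0.5 with vehicle. They were tested only through their NJT-2 values, so the filter favoured their being higher. In edgeR 4 of the 8 markers, *Adipoq* among them, were called higher, where 0.702% of all tested genes were called in either direction. These calls were lost without vehicle replicate 1 and without vehicle replicate 2, where no gene at all was called higher. Of all tested genes, 1 was called higher without NJT-2 replicate 1, 1 without NJT-2 replicate 3, and 2 without vehicle replicate 3. At most that many of the 4 calls were kept there. DESeq2 called all 8, where it called 7.8% of all tested genes. For 4 macrophage markers the sums were 58.7, 31.4, and 44.9 with NJT-2 and 9.67 to 12.7 with vehicle. Of these 4, *Adgre1* and *Fcgr1* were under 0.5 times both other NJT-2 libraries in replicate 2, *Cd68* was at 29.8, 19.7, and 21.03, and *Csf1r* was highest in replicate 2, at 4.12, 4.56, and 3.05. In edgeR, *Adgre1* was the 1 of these 4 called, and it was higher with NJT-2, where 0.702% of all tested genes were called. DESeq2 called *Adgre1* and *Cd68*, where it called 7.8%. The 3 endothelial markers summed to at most 2.46 in any library. For 5 progenitor and fibroblast markers the sums were 488, 444, and 452 with NJT-2 and 227 to 999 with vehicle, most of the NJT-2 sums being *Col1a1*. The log2 fold changes of all 5 were below 0 in the edgeR fit of all 6 libraries, with *Col1a1* above 0 in limma and without vehicle replicate 3, and 1 was called lower, *Pi16*, at 22.3, 19.4, and 12.5 with vehicle and at 1.73, 0.98, and 1.95 under NJT-2, where edgeR called 0.702% of all tested genes. DESeq2 called 3 of the 5, *Pdgfrb*, *Pi16*, and *Dcn*, where it called 7.8%. In edgeR the adjusted p was 0.027 for *Pi16* and 0.0408 for *Adgre1*, and the highest values over the alternatives were 0.243 and 0.3, both without vehicle replicate 2. Both calls were also lost without vehicle replicate 1, NJT-2 replicate 1, or NJT-2 replicate 3, and that of *Adgre1* without vehicle replicate 3 and with library totals in place of TMM. For 7 proliferation genes the sums were 76.0, 46.2, and 103.8 with NJT-2 and 63.6 to 166.5 with vehicle, and the 7 log2 fold changes in that fit were below 0, with none called in edgeR and 3 lower at an unadjusted p under 0.05, where 9.72% of all tested genes were. DESeq2 called these 3, *Cdk1*, *Mcm5*, and *Birc5*, where it called 7.8% of all tested genes. In these bulk samples, fewer cells of a type and less RNA per cell cannot be told apart, and the part of these differences in the levels of the 8 genes was not tested.

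**Figure D4:**
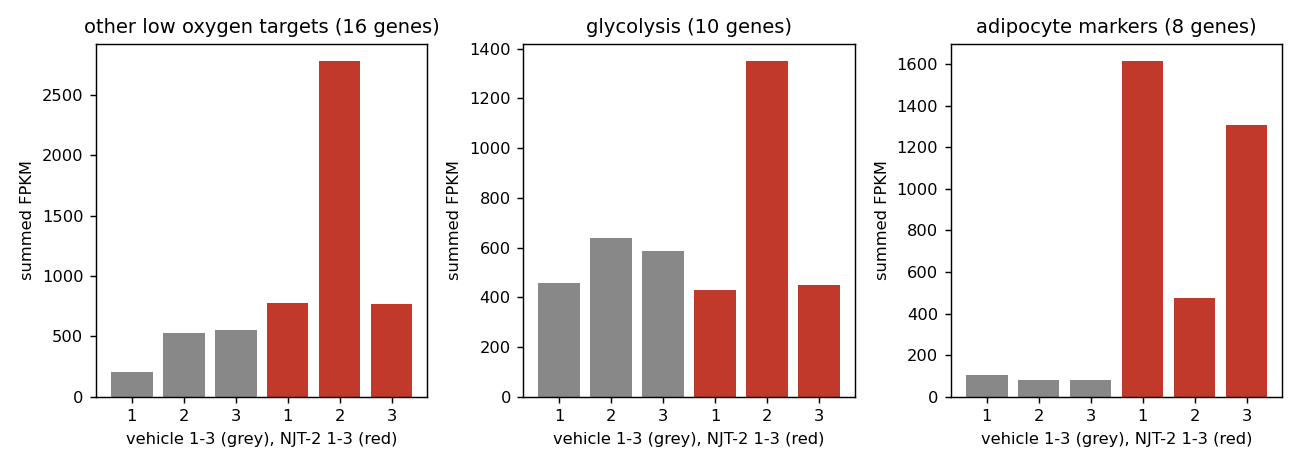
Summed FPKM (bars, linear axes from 0) of the 16 other low oxygen targets, 10 genes of glycolysis, and 8 adipocyte markers in each of the vehicle (grey) and NJT-2 (red) libraries. NJT-2 replicate 2 has the highest bar for the low oxygen targets and glycolysis (2782 and 1351) and the lowest NJT-2 bar for the adipocyte markers (473). In every NJT-2 library, Hmox1 and Ero1l are the largest parts of the low oxygen sum (961 and 777 in replicate 2).

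The genes most like the 8 members in their course over the 6 libraries were sought among 3459 others with a mean FPKM of at least 1, by the Pearson correlation of log2 CPM with the mean of the members. This is a description over 6 libraries of which a single one stands far from the rest, and 150 genes, 4.34% of these, had a correlation over 0.9. The 5 closest were *Yy1* (0.999), *Tbx3* (0.997), *Kif2a* (0.995), *Wsb1* (0.991), and *Pcgf5* (0.991). *Pcgf5* reached a mean FPKM of 1 only through NJT-2 replicate 2, at 6.8 where the other libraries had 0.15 to 1.07. *Wsb1*, a ubiquitin ligase adaptor that is itself a known low oxygen target, was at 16.1, 134, and 20.9 in the NJT-2 libraries, and the transcription factor *Yy1* at 9.99, 20.9, and 10.3.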

How the data were processed

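The authors trimmed reads with cutadapt 1.9, aligned them with HISAT2 2.2.1 to GRCm38, and used StringTie 2.1.6, per the labels. They deposited raw read counts per gene and FPKM values, and neither the annotation release nor the use of strand in counting is given in the sources used here. Libraries kept strand (dUTP), and antisense genes overlap *Lox* and *Mxi1* in GENCODE M21. All 6 count and 6 FPKM columns were matched to libraries by name. The analysed part holds 4864 complete lines, with 1 incomplete line left out. Counts on these genes were 16093037 to 28929673 per library, 27.7% to 32.5% of the library totals that the FPKM values imply, and GENCODE M21 lists 55450 genes, so "all genes" means those analysed here. For the members, counting error was not separated from the spread between libraries.

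Counts were tested with edgeR 4.0.16 (R 4.3.3, TMM factors, two-sided, Benjamini-Hochberg) over the 3705 genes whose FPKM averaged 0.5 or more. A call needed an adjusted p below 0.05 together with a change of more than 2-fold. NJT-2 replicate 2 was set beside the other NJT-2 libraries by FPKM ratios, with no test. Members, lists, and rules were chosen with earlier results of these data known. Named list genes were those called and the largest fold changes or ratios at a mean FPKM of at least 1, and other named genes were chosen after their values were seen. The method was tested on simulated data with 200 changed genes at each size. It recovered 0 of the 200 at a log2 change of 1, 69 at 2, and 174 at 3. A member that was not called may therefore still differ. Alternatives were DESeq2 1.42.0, limma 3.58.1 on log2(FPKM + 1) and log2(FPKM + 0.1), other factors and filters, a replicate block, and leaving out each library. Promoter sequences came from RefSeq.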

Additional observations from a re-analysis of the deposited data

How the results depend on the processing

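The log2 fold changes of *Bnip3l*, *Ddit4*, *Mxi1*, and *Vldlr* stayed above 0 under all 15 alternatives, and that of *P4ha2* below 0. *Vegfa* was at -0.133 without vehicle replicate 1 and NJT-2 replicate 2 together. *P4ha1* was at -0.138 with the replicate block, at -0.713 with both libraries left out, and from -0.756 to 0.518 leaving out each library. *Lox* was at -0.107 with upper-quartile factors, -0.0445 over all genes with a count, -0.0814 with the replicate block, -1.29 with both libraries left out, and from -0.931 to 0.557 leaving out each library. The count of members over 2 times both other NJT-2 libraries was between 6 and 8 under all scalings, pseudocounts, and limits tried.

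Of all genes, 21 were called higher and 5 lower. DESeq2 called 163 and 126, the replicate block 43 and 14, and both libraries left out 255 and 227. Called lower were 9 with upper-quartile factors, 9 over all genes with a count, 8 at a mean FPKM of at least 1, and 10 in limma with either pseudocount. Leaving out each library gave 0 to 56 higher and 0 to 19 lower, with no gene called without vehicle replicate 2 (421 at an unadjusted p under 0.05) and the most without NJT-2 replicate 2. The median log2 fold change of the other low oxygen targets ran from -0.288 to 1.39 leaving out each library and was 0.0278 for the annotated genes. Library totals in place of TMM moved the median of all genes by 0.139. The cause was not tested. Replicate numbers did not pair the libraries (correlations of deviations 0.179, 0.0325, and -0.207), and the block changed the call of none of the 8 genes. The lowest count of a member in any library was 566, for *Mxi1* in vehicle replicate 1, and the effect of depth was not tested.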
